A study of Mus musculus with 30 samples.

Results

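Gdf15 (ENSMUSG00000038508) and Fgf21 (ENSMUSG00000030827) were read in mouse hearts as a pair of genes that encode mitokines, hormones released by cells whose mitochondria are under stress. They were found by Ensembl ID, as 2 of 78258 gene rows in the table of the postpartum study and 2 of 56691 in the table of the diet study. The assay counted the 3' ends of mRNA in whole heart tissue, so no hormone was measured as protein. The hearts came from wild-type (WT) mice and from mice with the p.S55L mutation of CHCHD10, a small protein of the mitochondrial intermembrane space. In the postpartum study there were 4 groups: WT naive and S55L naive mice kept until an age of 100 days, and WT PP and S55L PP mice, which were bred when 65 days old and were postpartum (PP) day 0 at death. In the diet study every mouse was S55L and at postpartum day 0, and was fed during breeding with control chow or with chow holding EH301, a supplement of nicotinamide riboside and pterostilbene. The diet study has no WT group, and the labels state no zygosity for S55L.

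GDF15 is a distant relative of the TGF-beta family that circulates in blood and acts on the hindbrain, where its receptor GFRAL signals together with the kinase RET to lower food intake. FGF21 is an endocrine fibroblast growth factor made mainly by liver and fat, and it signals through FGFR1 with the obligate cofactor beta-Klotho (Klb). Transcription of both genes is known to rise in the integrated stress response, in which the kinases of the eIF2 alpha subunit slow translation while the transcription factor ATF4 is made in greater amount, and in muscle and heart this response follows mitochondrial damage signalled by the protease OMA1 and its substrate DELE1.

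The stretches before the annotated starts of both genes are shown because the genes moved together between genotypes and because ATF4 acts on DNA near such starts. The sequences are from RefSeq, build GRCm38.p6, which is not the build the files were aligned to. Each runs 5' to 3' on the gene's own strand, the minus strand, over the 250 bases before the first annotated start, at chr7:45615491-45615740 for Fgf21 and chr8:70632457-70632706 for Gdf15. Capitals mark matches to any of 5 motifs that were searched on both strands: TGATGNAAN (the composite C/EBP-ATF site), TGACGTCA (the cAMP response element), TGACNNNGC (the antioxidant response element), CACGTG (the E-box of the carbohydrate response factor and of TFEB) and TATAAA (the TATA box).
Fgf21: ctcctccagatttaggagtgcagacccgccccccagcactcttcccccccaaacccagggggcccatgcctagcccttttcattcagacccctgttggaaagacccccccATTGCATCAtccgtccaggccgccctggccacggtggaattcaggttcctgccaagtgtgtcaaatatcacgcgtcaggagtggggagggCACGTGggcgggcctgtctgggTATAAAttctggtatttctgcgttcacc
Gdf15: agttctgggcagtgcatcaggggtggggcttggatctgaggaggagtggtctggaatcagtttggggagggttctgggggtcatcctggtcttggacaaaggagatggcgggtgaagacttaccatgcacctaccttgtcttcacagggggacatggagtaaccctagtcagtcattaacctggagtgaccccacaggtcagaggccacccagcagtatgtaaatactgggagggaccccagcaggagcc

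The Fgf21 stretch held TGATGNAAN on the reverse strand from base -140 to -132 before the start, CACGTG from -50 to -45 and TATAAA from -28 to -23. No letters of the 5 motifs were found in the Gdf15 stretch shown. A second annotated Gdf15 start had CACGTG from -83 to -78 before it. Over all 32851 mouse promoter windows of 300 bases (250 before and 50 after a start), TGATGNAAN was found in 3.95%, CACGTG in 7.15% and TATAAA in 13.6%, while TGACNNNGC was found in 12.4% and TGACGTCA in 1.79%. These matches describe letters only, since no binding was measured.

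The postpartum study had 18 separate libraries (5 WT naive, 4 WT PP, 5 S55L naive, 4 S55L PP) and the diet study 8 (4 on each diet), after columns with identical counts were used once or left out. Reads on genes ranged from 1418715 to 2949993 per WT library, from 2755500 to 5131316 per S55L library of the postpartum study, and from 466651 to 3048461 per library of the diet study. The share of reads on genes was 58.3% to 61.6% in the WT libraries and 66.3% to 69.2% in the S55L libraries of the postpartum study. The plate column of the library nearly coincided with genotype, so effects of plate position and of genotype are hard to tell apart. All WT naive libraries were in plate column 1 and all S55L naive ones in column 2. The WT PP libraries used were in column 1 except replicate 1 in column 2, and the S55L PP ones in column 3 except replicate 5 in column 2. A plate column term can be told from genotype only through WT PP replicate 1. The comparison of S55L PP with S55L naive nearly coincides with plate column as well. A count per gene does not show a point mutation, so the genotype labels were not checked from these data. Whether the libraries come from separate mice is not stated in the labels, and p-values therefore speak only of the spread among libraries.

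Gdf15 was at or near 0 in WT naive hearts and was high in every S55L naive heart. The 5 WT naive libraries held 1, 2, 3, 0 and 0 Gdf15 reads, which is 0.781 ± 0.861 counts per 1000000 reads of scaled library size (CPM, mean ± SD, n = 5). The S55L naive libraries held 939, 1207, 472, 655 and 1136 reads, or 195.8, 215.7, 105.2, 186.2 and 247.7 CPM (190.1 ± 53.0 CPM, n = 5). The groups did not overlap, and the lowest S55L naive library, replicate 3, had 472 reads where the highest WT naive library had 3. Between the naive genotypes the log2 fold change of Gdf15, S55L over WT, was 8.01 (SE of 0.57, adjusted p = 6.3e-09, edgeR quasi-likelihood test), a 257.7-fold difference with a 95% interval of 111.4 to 596.1. The WT naive group holds only 6 Gdf15 reads in all, and Gdf15 passed the filter on low counts only through the S55L groups, so a difference between genotypes was built into its being tested. Of 11945 genes tested, 43.5% were called in this comparison at an adjusted p below 0.05, 21.9% as higher, and Gdf15 had the 6th highest fitted log2 fold change.

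At postpartum day 0 the same contrast was seen between genotypes. The WT PP libraries held 2, 1, 1 and 8 Gdf15 reads (1.19 ± 1.12 CPM, n = 4), of which 8 were in replicate 5. The S55L PP libraries held 904, 917, 372 and 1247 reads, or 252.7, 206.0, 100.2 and 388.8 CPM (237 ± 120 CPM, n = 4). These groups did not overlap either. The log2 fold change was 7.44 (SE 0.56, adjusted p = 1.9e-08, edgeR), or 173.9-fold with a 95% interval of 76.6 to 394.5, in a comparison that called 31.5% of all genes, 16.3% as higher.

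Fgf21 had no read in any of the 9 WT libraries and reads in all 9 S55L libraries of the postpartum study. A count of 0 over a group allows up to 3 counts, that is 0.347 CPM for the naive and 0.334 CPM for the postpartum WT hearts, a limit that covers counting error only. S55L naive libraries held 21, 40, 17, 19 and 44 Fgf21 reads, or 4.38, 7.15, 3.79, 5.40 and 9.59 CPM (6.06 ± 2.35 CPM, n = 5). S55L PP libraries held 7, 25, 8 and 16 reads, or 1.96, 5.62, 2.15 and 4.99 CPM (3.68 ± 1.89 CPM, n = 4). The mRNA was thus detected in every S55L heart of the postpartum study at 7 to 44 reads per library.

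Against that limit, naive S55L hearts had Fgf21 at least 17.5-fold higher than naive WT hearts, and postpartum S55L hearts at least 11.0-fold higher than postpartum WT hearts. The edgeR adjusted p was 6.6e-06 for the naive and 0.00014 for the postpartum comparison. Like Gdf15, Fgf21 passed the filter only through the S55L groups. Exact two-sided permutation tests over libraries gave p = 0.00794 for each of Gdf15 and Fgf21 in the naive comparison and p = 0.0286 for each in the postpartum one, which are the smallest values that 5 against 5 and 4 against 4 libraries allow. Adjusted over the 9 such tests made on the members, these became 0.0357 and 0.0643. With the plate column as a term, the naive Fgf21 call was lost (adjusted p = 0.9999, edgeR, fitted log2 fold change 7.24), while Gdf15 gave 9.09 (adjusted p = 0.0022) in the naive and 8.99 (adjusted p = 5.3e-05) in the postpartum comparison.

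**Figure D1:**
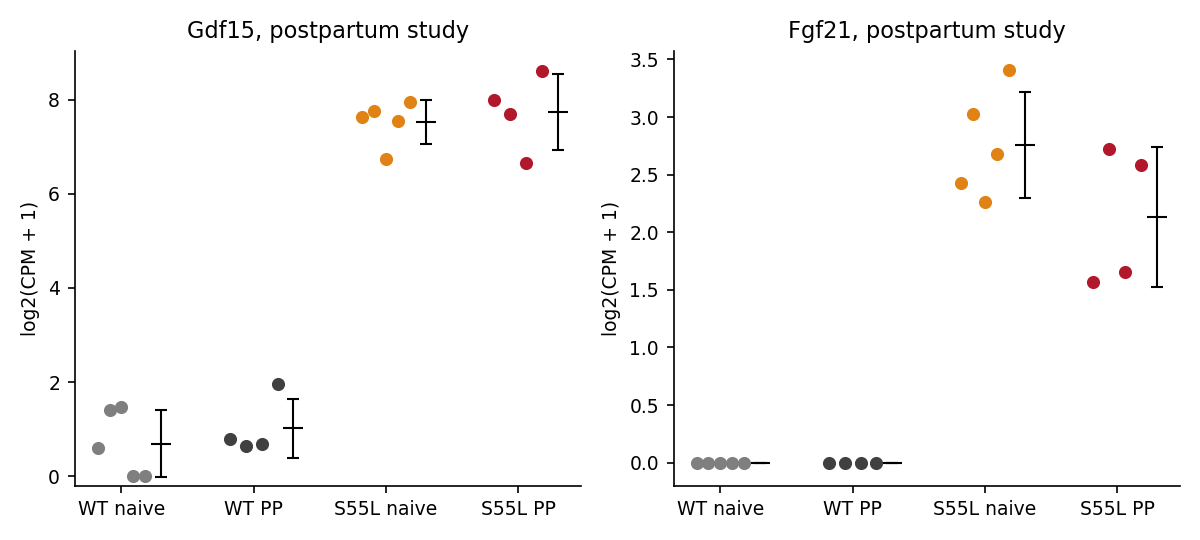
Gdf15 and Fgf21 in each library of the postpartum study, as log2(CPM + 1) by group, with points for libraries and, beside them, the mean ± SD of these log values. All 9 S55L libraries lie above all 9 WT libraries for both genes, while the naive and postpartum libraries of a genotype overlap for Gdf15 and, in S55L, for Fgf21.

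PP and naive hearts were compared for the members within each genotype, in comparisons that share their libraries with those between genotypes. The PP mice differed from the naive ones by breeding, pregnancy and birth together, which cannot be told apart. Their age at death is not given, so a difference in age cannot be told apart either. In WT hearts the PP minus naive difference of Gdf15 was 0.88 on the log2 scale (SE 1.20, adjusted p = 0.94, edgeR), and 0.0167% of all genes were called. Without WT PP replicate 5, which holds 8 of the 12 Gdf15 reads of its group, the value was -0.11. In S55L hearts the Gdf15 difference was 0.32 (SE 0.32, 95% interval -0.35 to 0.98, adjusted p = 0.91), and without S55L PP replicate 5 it was -0.029. The groups overlapped: against the naive range of 105.2 to 247.7 CPM, 1 S55L PP library lay inside, 1 below and 2 above. The spread was wider in S55L PP, with a coefficient of variation of 50.5% against 27.9% in S55L naive hearts, a difference that was not tested.

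Fgf21 was lower in S55L PP than in S55L naive hearts on average, by a log2 difference of -0.71 (SE 0.38, 95% interval -1.50 to 0.08), which did not pass the test (adjusted p = 0.81, edgeR). The exact permutation test over libraries gave p = 0.151 for Fgf21 and p = 0.651 for Gdf15. In this comparison 0% of all genes were called by edgeR, with 747 of 11945 at an unadjusted p below 0.05, while DESeq2 called 10 genes and limma voom 22. The interaction of genotype and postpartum state was -0.57 for Gdf15 (SE 1.22, adjusted p = 0.997, edgeR), without WT PP replicate 5 it was 0.42, and 0% of genes were called (444 at an unadjusted p below 0.05, 1 by DESeq2). For Fgf21 the WT groups hold no read, so neither its WT difference nor its interaction has a value.

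The members were also set against each other within a library in S55L hearts. This description was chosen after the values were seen, so no p-value is given for it. There were 44.7, 30.2, 27.8, 34.5 and 25.8 Gdf15 reads per Fgf21 read in the S55L naive libraries. In the S55L PP libraries there were 129.1, 36.7, 46.5 and 77.9. Geometric means were 31.96 in naive and 64.4 in PP hearts, a 2.01-fold difference, with naive replicate 1 above PP replicate 3. Without S55L PP replicate 1 the difference was 1.60-fold. Depth does not enter this ratio, but the 7 and 8 Fgf21 reads of PP replicates 1 and 4 do.

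**Figure D2:**
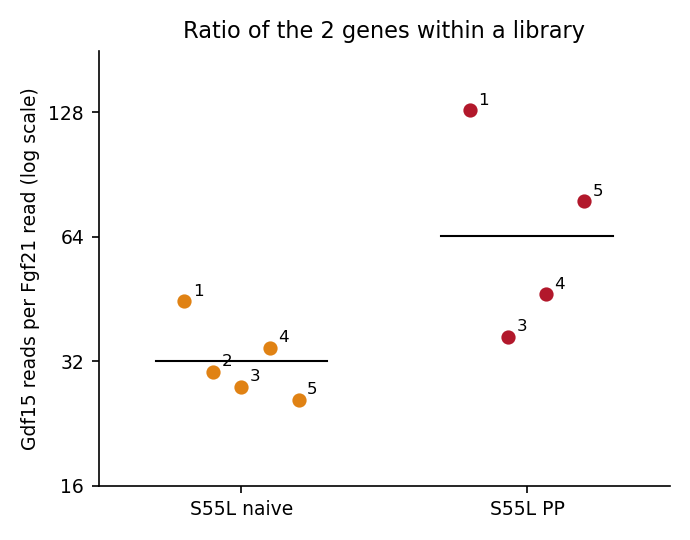
Gdf15 reads per Fgf21 read in each S55L library of the postpartum study, on a log axis, with points for libraries and a bar for the geometric mean. The PP libraries reach from 36.7 to 129.1 and the naive ones from 25.8 to 44.7, so 1 PP library lies inside the naive range.

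In the diet study Gdf15 was high in all 8 S55L postpartum hearts, and no difference between diets was found. Control diet libraries held 970, 1298, 2215 and 2366 Gdf15 reads, or 2157, 489.98, 737 and 887 CPM (1068 ± 745 CPM, n = 4). EH301 libraries 7 to 10 held 1791, 1925, 2101 and 2185 reads, or 619.6, 1873, 669 and 814 CPM (994 ± 591.8 CPM, n = 4). One library on each diet stood far above the other 3, control replicate 1 and EH301 replicate 8, and these are also the 2 shallowest libraries, with 466651 and 1141997 reads on genes.

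The log2 fold change of EH301 over control diet was -0.10 (SE 0.49, 95% interval -1.16 to 0.96, adjusted p = 0.9999, edgeR), so changes of about 2-fold in either direction lie within the interval. Without both shallow libraries it was -0.021 with an SE of 0.23. Leaving out control replicate 1 alone gave 0.50 and leaving out EH301 replicate 8 alone gave -0.61, so these 2 libraries set the sign. edgeR called 0% of the 10335 genes tested (137 at an unadjusted p below 0.05), DESeq2 called 0 and limma voom 1, and the exact permutation test for Gdf15 gave p = 0.943 (smallest possible 0.0286). Both shallow libraries also had the highest summed level of 12 macrophage markers (4953 and 5909 CPM, against 1780 to 3106 CPM in the other 6) and of 7 skeletal muscle markers (3365 and 1003 CPM, against 246.9 to 353.3 CPM). Control replicate 1 further had 224.6 CPM of hepatocyte markers, against 8.60 to 55.5 CPM elsewhere. The part of these cells, or of depth, in the Gdf15 level was not tested.

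Fgf21 was almost absent from the diet study. The control diet libraries held 1, 0, 0 and 0 Fgf21 reads and the EH301 libraries 2, 1, 0 and 0, so Fgf21 did not pass the filter on low counts, and no fold is given at this depth. Over the groups there was 1 Fgf21 read beside 6849 Gdf15 reads on the control diet and 3 beside 8002 on the EH301 diet. In S55L PP hearts of the postpartum study there were 56 Fgf21 reads beside 3440 Gdf15 reads. These 2 tables were counted on different annotations and never fitted together, so the difference between them was not tested.

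**Figure D3:**
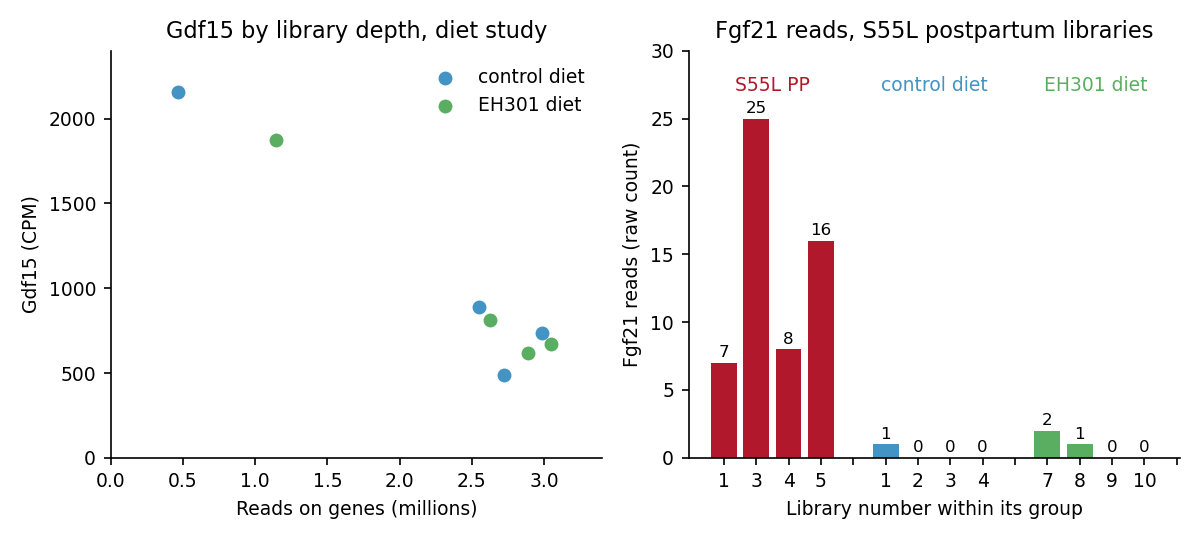
Left, Gdf15 in CPM against reads on genes for each library of the diet study, by diet; the 2 shallowest libraries have the highest values, 2157 and 1873 CPM. Right, raw Fgf21 reads in each S55L postpartum library of both studies, with 7 to 25 reads in the postpartum study and 0 to 2 on the diets.

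Genes of the 2 hormones' own signalling were counted from lists chosen with earlier results of these data known. For GDF15, the protease genes that cut its precursor were present, and the receptor was not seen. Of 5 genes on this list 3 were tested, and Furin, a proprotein convertase, fell in S55L hearts by 0.48 on the log2 scale in the naive (adjusted p = 0.025, edgeR) and by 0.64 in the postpartum comparison (adjusted p = 0.0098, edgeR). Furin was the only gene of the 3 called. Of all genes, 21.6% were called lower in the naive and 15.2% in the postpartum comparison. Gfral had no read in any library of either study, and Ret had 9 to 34 reads per group and was not tested.

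For FGF21, the receptor was present and its cofactor was close to absent. Klb had 1 read over all libraries of both studies, and so had Kl, the cofactor of another endocrine FGF. Fgfr1 did not pass the test between naive groups (0.087, adjusted p = 0.68) and was higher in S55L PP than in WT PP hearts (0.56, adjusted p = 0.014). Of 9 genes on this list 4 were tested, of which Fgfr3 rose in the naive comparison (1.37) and Fap, the protease that inactivates circulating FGF21, fell in both (-1.03 naive, -0.97 postpartum). In each comparison 1 of the 4 was called higher and 1 lower. Of all genes, 43.5% were called in either direction in the naive and 31.5% in the postpartum comparison.

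Targets of FGF receptor signalling through the MAP kinase pathway were higher in part. In the naive comparison 4 of 7 tested rose and 0 fell, with a list median of 0.81 against -0.0039 over all genes, of which 21.9% were called higher: Spred1 and Dusp6, inhibitors of the pathway, by 0.83 and 0.81, and the transcription factor Etv5 by 0.93. The phosphatase gene Dusp4 had 1 read in each WT group, 155 in S55L naive and 166 in S55L PP hearts. Dusp4 therefore passed the filter on low counts only through the S55L groups. How many others on this list did so was not counted. In the postpartum comparison 3 rose and 0 fell (median 0.29, with 16.3% of all genes called higher), with Etv5 at 1.25, Spred1 at 0.65 and Dusp6 at 0.27, the last not past the test (adjusted p = 0.43).

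Among the other ligands of both families that could be tested, none was called higher. Of 11 other FGF genes 5 were tested, and 4 fell and 0 rose in S55L naive hearts (median -0.70), where 21.6% of all genes were called lower: Fgf2 by 1.34, Fgf9 by 0.91, Fgf13, an intracellular relative, by 0.61 and Fgf1 by 0.37 on the log2 scale. In S55L PP hearts, where 15.2% of all genes were called lower, 2 fell and 0 rose (median -0.73), Fgf9 (-1.05) and Fgf13 (-0.73). Of 9 other GDF genes, including Gdf11 and myostatin (Mstn), 0 passed the filter on low counts, so none was tested, and Gdf6 had the most reads in any group, 44 in S55L PP.

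The transcription factors that act on the members were split. Of 15 tested, 7 rose and 4 fell in the naive comparison (median 0.66; 21.9% of all genes were called higher and 21.6% lower) and 6 rose and 4 fell in the postpartum one (median 0.16; 16.3% and 15.2%). Those of the integrated stress response rose in both: Atf4 by 2.68 and 2.02 (SE 0.19 and 0.20), Atf5 by 2.46 and 2.20, Cebpg, a partner of ATF4, by 1.09 and 1.32, and Ddit3, which encodes CHOP, by 1.41 and 1.58. Atf3 and Nupr1 rose as well in both, Nupr1 by 1.82 and 1.93. Factors known to drive Fgf21 in liver during fasting or sugar feeding fell in both, Ppara by 1.92 and 1.74, and Mlxipl, the carbohydrate response factor, by 1.40 and 1.89. Ppargc1a fell by 0.60 and 1.06, and Tfeb by 1.01 and 1.35.

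Of the sensors upstream, 12 were tested, and 2 rose and 2 fell in each comparison (medians 0.074 and 0.062), a share no larger than that over all genes in the naive comparison (43.5%) and near it in the postpartum one (31.5%). Dele1, which carries the mitochondrial signal to the cytosol, fell by 1.42 and 1.39, and Oma1, which cleaves it, fell by 0.49 and 0.46. Eif2s1, which encodes the eIF2 alpha subunit, rose by 0.84 and 0.56. The other gene that rose was Eif2ak2, the kinase PKR, in the naive comparison (adjusted p = 0.0096) and Eif2b3, a subunit of the factor that recycles eIF2, in the postpartum one (0.76). Eif2ak1, the kinase that DELE1 activates, differed by 0.18 in each comparison (adjusted p = 0.42 and 0.50).

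Among targets and feedback genes of the stress response, 8 of 11 tested rose and 1 fell in each comparison (medians 4.53 and 4.31), where 21.9% and 16.3% of all genes were called higher. Of the 11 tested, 1 had no read in WT naive hearts. How many of them passed the filter on low counts only through the S55L groups was not counted. Mthfd2, a mitochondrial folate enzyme, rose by 6.97 and 6.01, Asns, asparagine synthetase, by 6.40 and 5.28, Trib3, an inhibitor of ATF4, by 4.53 and 4.31, and Chac1, which breaks down glutathione, by 3.80 and 3.96. Vldlr, a lipoprotein receptor, fell by 1.33 and 0.90.

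Other secreted factors of the stressed heart were also higher, 10 of 14 tested in the naive and 9 in the postpartum comparison, with 2 lower in each (medians 1.80 and 1.45), against 21.9% and 16.3% of all genes called higher. Of the 14 tested, 1 had no read in WT naive hearts. How many of the 14 passed the filter on low counts only through the S55L groups was not counted. Inhba, which encodes an activin subunit, rose by 5.42 and 4.55, Igf1 by 1.71 and 1.15, and the follistatin-like gene Fstl1 by 1.19 and 1.37. The 2 that fell in each were the angiogenic factor Vegfa, by 0.85 and 1.09, and the peptide hormone Apln, by 0.84 and 1.95. Ostn, a natriuretic receptor ligand, had 0 reads in WT naive and 322 in S55L naive hearts, at least 40.1-fold higher. In the comparisons of PP with naive, in the interaction and between diets, 0 genes of all 9 lists were called. Of all genes, 0.0167% were called between WT PP and WT naive hearts, and 0% in each of the others.

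**Figure D4:**
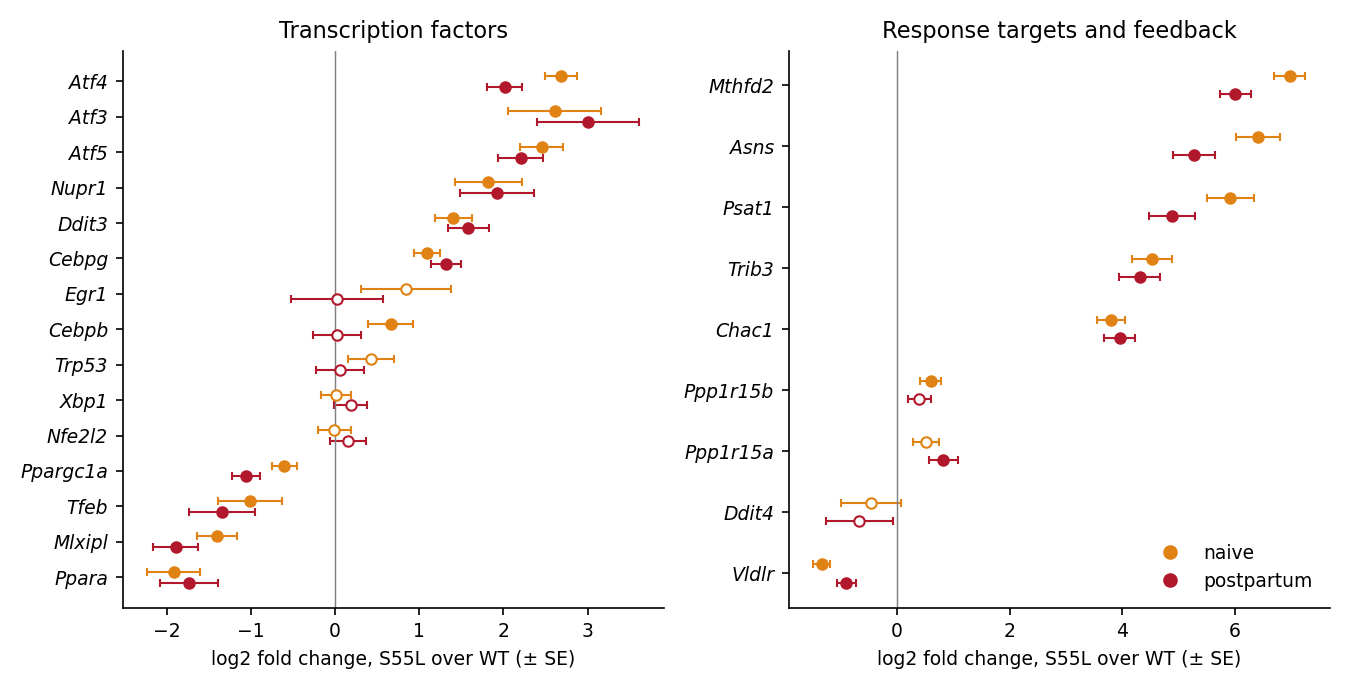
Log2 fold changes of S55L over WT in naive (orange) and postpartum (red) hearts, with bars of 1 SE, for the transcription factors that act on the members (left) and for targets of the stress response (right); filled points passed the test, and genes with 3 or fewer reads in the WT groups are not drawn. Atf4, Atf5, Ddit3, Mthfd2 and Asns lie to the right of 0 in both comparisons, and Ppara, Mlxipl and Vldlr to the left.

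Across libraries, the genes with levels most like those of the members were found by Pearson's r of log2 CPM over 18 libraries and 9326 genes whose mean reached 5 CPM, as a description, since these libraries share the difference between genotypes, in depth and in plate column. For Gdf15 they were Esd (r = 0.99), Vmn2r3 (0.99), Atp6v0e (0.98), Scpep1 (0.98) and Rtn4 (0.98), and Fgf21 came 72nd when added to them, its own mean being lower. For Fgf21 they were Prmt3 (0.98), Tmem144 (0.97), Cds2 (0.97), Creg1 (0.97) and Srxn1 (0.97), and Gdf15 came 29th. In the diet study, over 8 libraries and 9177 genes, the genes most like Gdf15 included Eif6, Aprt, Coq4 and Rrp12 (each r = 0.99), a likeness that was not computed without the 2 shallow libraries.

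Within the S55L groups, after group means were removed, Gdf15 and Fgf21 had r = 0.61 and Spearman's rho = 0.40 over 9 libraries (permutation within groups, p = 0.15 for r and 0.34 for rho, 0.27 and 0.61 after adjustment over 16 pairs). Without the 2 libraries farthest from the median of the partner, here Fgf21, r was 0.69. The 2 libraries left out were chosen anew for each partner. Gdf15 with Ddit3 had r = 0.84 (permutation p = 0.013, adjusted 0.051) and rho = 0.85 (p = 0.031, adjusted 0.14), and r = 0.54 without the 2 farthest. Gdf15 with Trib3 had r = 0.80 (permutation p = 0.035, adjusted 0.093) and rho = 0.67 (p = 0.20, adjusted 0.41), and r = 0.70 without the 2 farthest. Gdf15 with Atf4 had r = 0.69 (permutation p = 0.11, adjusted 0.22) and rho = 0.35 (p = 0.45, adjusted 0.65). Without the 2 libraries farthest in Atf4 the r was -0.10, so the value of 0.69 rests on them. None of the 11 pairs in the postpartum study passed after adjustment, and the 5 pairs of Fgf21 with other measures had r from 0.17 to 0.57. The 16 pairs include 5 of the diet study over all 8 libraries, whose lower p-values enter the adjustment. With the 2 shallow libraries left out of those, the adjusted permutation p of r was 0.21 for Gdf15 with Ddit3 and 0.28 with Trib3. In the diet study the 2 shallow libraries stand apart, so no pooled r is given. Over the other 6, Gdf15 had r = 0.81 with Atf4, 0.85 with Ddit3, 0.77 with Trib3, 0.17 with Nppb and 0.14 with the summed macrophage markers. The exact permutation p of r was from 0.17 to 0.83 for these 5 partners, with only 36 permutations to draw on. Without the 2 libraries farthest in each partner, r was 0.22, 0.63, -0.25, 0.73 and -0.64 in the same order.

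Summed levels of cell type markers differed between the genotypes as well. In bulk tissue, fewer cells of a type and less RNA per cell cannot be told apart. Macrophage markers, 12 of 12 with reads in every group, summed to 311.1 to 397.8 CPM in naive and 437.8 to 550.4 CPM in postpartum WT hearts, against 1637 to 1995 CPM in naive and 1465 to 2559 CPM in postpartum S55L hearts. Cardiomyocyte markers, 8 of 8 with reads in every group, summed to 69407 to 84216 CPM in WT and 33131 to 53920 CPM in S55L hearts. The genotypes did not overlap on either list, nor on 3 more. How many single genes separated the genotypes in this way was not counted, and 43.5% of all genes were called in the naive and 31.5% in the postpartum comparison. Fibroblast markers summed to 1000.4 to 1435 CPM in WT and 1591 to 2488 CPM in S55L hearts, smooth muscle and pericyte markers to 702.2 to 1027 and 1591 to 3672 CPM, and skeletal muscle markers to 854.9 to 1515 and 203.3 to 664.3 CPM. Of 8 fibroblast markers tested, 4 were called higher in naive and 5 in postpartum S55L hearts, and 0 lower. Of all genes, 21.9% and 16.3% were called higher. Pdgfra, Tcf21 and Dpt were called in neither comparison. On the smooth muscle and pericyte list only Acta2 was called higher in S55L hearts (log2 fold change 3.45 naive, 2.46 postpartum). Of 7 tested there, 5 were called lower in naive and 3 in postpartum hearts (medians -0.66 and -0.52), where 21.6% and 15.2% of all genes were called lower. Of 7 skeletal muscle markers only Ckm passed the filter on low counts. The cardiomyocyte list was by far the most abundant of the 12 cell type lists. The part of macrophages or other cells in the levels of Gdf15 and Fgf21 was not tested.

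Markers of the 2 tissues best known for making FGF21 were near 0 in the postpartum study. Hepatocyte markers, 7 or 8 of 8 with reads in each group, summed to 2.90 to 11.2 CPM over all its libraries, and Serpina1a had no read in WT naive, Fgb none in WT PP and Apoa1 none in S55L PP hearts. Adipocyte markers, 5 or 6 of 6 with reads in each group, summed to 0.284 to 10.05 CPM, with Lep at 0 in every group but S55L naive. The ranges of the 2 genotypes overlapped on both lists.

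**Figure D5:**
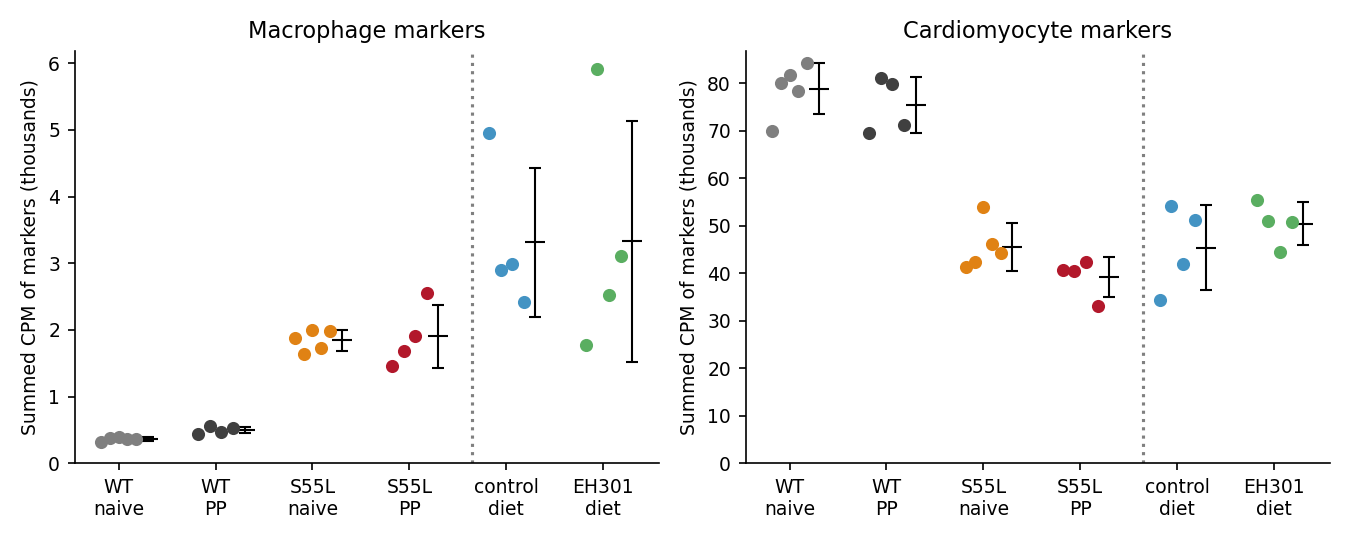
Summed CPM of macrophage and cardiomyocyte markers in each library (points), by group, with the mean ± SD beside them, for the postpartum study left of the dotted line and the diet study, which was counted apart, right of it. In the postpartum study the S55L libraries lie above all WT libraries for macrophage markers (1465 CPM or more against 550.4 CPM or less) and below them for cardiomyocyte markers.

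Of the genes next to the members, 2 had enough reads to be tested, and neither was called higher in S55L hearts. Pgpep1, a peptidase gene beside Gdf15, had a log2 fold change of 0.15 (adjusted p = 0.42) in the naive and -0.057 (adjusted p = 0.82) in the postpartum comparison. Bcat2, which encodes the mitochondrial enzyme that starts the breakdown of branched-chain amino acids and lies beside Fgf21, fell by 1.08 (adjusted p = 0.0011) and by 1.23 (adjusted p = 0.0015). Lrrc25, Fut1 and Gm31479, the other annotated neighbours with a row, had too few reads to be tested. Lrrc25, beside Gdf15, averaged 1.32 CPM in S55L naive and 0.099 CPM in WT naive hearts, and 1.14 and 1.01 CPM in the postpartum groups. Fut1, beside Fgf21, averaged 0.619 and 0.395 CPM in the S55L naive and PP groups and had no read in WT hearts. No gene of GENCODE M21 overlaps Gdf15 or Fgf21, and the strand setting of the counting is not stated.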

How the data were processed

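Hearts were profiled by 3' mRNA sequencing (Lexogen QuantSeq FWD, per the labels' protocols). Deposited are raw counts of reads per gene, which the authors made with Trimmomatic 0.39, STAR 2.7.0f on GRCm39.p6 and HTSeq 0.6.1, per the submitters' processing notes, which also list DESeq2 3.21. The strand setting, counting mode and annotation release are not given in the sources used here. Rows that name no gene were left out; reads with several alignments were 17.5% to 27.3% of the postpartum table's libraries and 35.2% to 39.1% of the diet table's. GENCODE M21 gave symbols for 51487 and 52073 Ensembl IDs.

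Identical columns 1 and 2 of WT PP, and likewise of S55L PP, were used once as replicate 1, and the column found under both diets (control 5, EH301 6) was left out. All other pairs within a group differed, with a chi-square per gene of 2.16 or more. As a check for pairing, deviations from the group mean were correlated between libraries that carry the same number: r was 0.119 to 0.333 for the 4 pairs of WT PP with S55L PP, and 0.1 or less for at least 1 pair of every other combination. The same number was the best match for 3 of 4 pairs of WT PP with S55L PP. It was so for 4 of 4 of WT PP with S55L naive and for 3 of 4 of S55L naive with S55L PP. For WT naive it was the best in 2 of 4 pairs with WT PP, 2 of 4 with S55L PP and 1 of 5 with S55L naive. What the number means is not stated.

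After filterByExpr and TMM scaling, all genes were tested by edgeR 4.0.16 (R 4.3.3; quasi-likelihood, robust) adjusted by Benjamini-Hochberg, called below 0.05, fitting the 4 postpartum groups together and the diets apart. The biological coefficient of variation was 0.199 and 0.299. Log2 CPM had a prior count of 2. The procedure was checked on simulated counts. Alternatives included DESeq2 1.42.0 and limma 3.58.1 voom. The members and gene lists were chosen with earlier results of these data known. Named were both members, per list and comparison up to 4 genes of lowest adjusted p, the 5 genes most like each member, annotated neighbours, and Atf4, Ddit3, Klb, Fgfr1, Gfral and Ret; Atf3, Nupr1, Ppara, Ppargc1a, Tfeb, Eif2ak1, Vldlr, Apln, Gdf6, Gdf11, Mstn and Kl were chosen after their values were seen. Not every gene under the rule is reported here.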

Additional observations from a re-analysis of the deposited data

Results flagged for a closer look

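Within groups of 4 or 5 libraries, 3 of the 10 sets of member values tested held a library far from the rest, where chance flags about 1 in 20. Gdf15 was at 2.87 CPM (8 reads) in WT PP replicate 5, against 1 or 2 reads in the other 3 WT PP libraries. Fgf21 was at 2.22 CPM in control diet replicate 1, which is 1 read in the shallowest library of the series; with 1, 0, 0 and 0 reads this set is flagged by construction, and the rate of 1 in 20 does not apply to it. Gdf15 was at 1873 CPM in EH301 diet replicate 8, against 619.6 to 814 CPM in the other 3.

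The column deposited under both diets, which entered no comparison, held 3023 Gdf15 reads, or 1354 per 1000000 reads on genes, and 2 Fgf21 reads.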

How the results depend on the processing

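The 4 genotype differences of Gdf15 and Fgf21 kept their direction under every alternative in which the gene was tested. They stayed past the threshold, apart from Fgf21 in naive hearts with the plate column as a term (fitted 7.24, adjusted p = 0.9999, edgeR). Gdf15 ranged from 7.64 to 9.09 in naive and from 7.03 to 8.99 in postpartum hearts. With the replicate number as a replicate block Gdf15 gave 8.05 (naive) and 7.50 (PP), and Fgf21 -0.64 between S55L PP and naive; the block changed no call of a member. No paired analysis was possible for the diets because they share no replicate numbers. Results not past the threshold changed sign in places. Gdf15 between diets was 0.18 with limma voom and ran from -0.61 to 0.50 when 1 library was left out. Leaving out 1 library gave -0.029 to 0.57 for Gdf15 in S55L PP against naive, -0.11 to 1.52 in WT and -1.20 to 0.42 for its interaction. Gene counts moved too. S55L PP against naive gave 10 genes with DESeq2, 10 with all deposited columns, 22 with voom, 37 with no filter, 3 with only the compared groups, 1 with the plate column, 3 with total counts and 0 to 4 without 1 library. WT PP against naive gave 11 with DESeq2, 4 with voom, 21 with no filter, 21 with the plate column and 2 to 10 without 1 library. The interaction gave 1 with DESeq2, 5 with no filter, 2 with the plate column and 0 to 2 without 1 library; the diets gave 1 with voom. With the plate column the genotype counts were 2873 (naive) and 2108 (PP), against 5192 and 3767. The cause of these moves was not tested. The plate column could not be fitted in the diet study, and Fgf21 after thinning fell to the filter. In the postpartum comparison of genotypes Fgf21 also fell to the filter when only the compared groups were fitted. Gdf15 rests on 6 and 12 reads in the WT groups and Fgf21 on none, which limits every fold against them.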
